A study of Sus scrofa with 13 samples.

Results

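FHL1 (ENSSSCG00000012699) was followed across 13 pig RNA sequencing libraries. It is 1 of 21607 Ensembl genes in tables that list 32420 features, of which the other 10813 are lncRNAs assembled by the study, and it was picked by its identifier alone. FHL1 encodes a protein built of LIM domains, zinc-binding modules through which proteins dock to each other, and it belongs to the FHL family. In muscle the protein is found at the sarcomere, where it binds titin and a myosin-binding protein and takes part in signalling by the MAP kinases. The gene is X-linked, it is known for promoting muscle growth, and its mutations cause reducing body myopathy and a form of Emery-Dreifuss muscular dystrophy.

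The libraries came from total RNA depleted of ribosomal RNA. Guizhou mini-pigs, a small breed, gave 11 of them: adipose, ovary, testis, kidney, lung, spleen, liver and heart at postnatal day 240, and longissimus dorsi, the long back muscle, at days 0 (D0), 30 (D30) and 240 (D240). The other 2 held RNA of multiple breeds and time points mixed in equal quantities, 1 from several tissues (tissue mixture) and 1 from several muscles (muscle mixture). Each tissue, stage or mixture was 1 library, with no replicate and no animal named, so no difference below could be tested and tissue, stage, animal and library preparation cannot be told apart.

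Expression was given as RPKM, reads scaled to the length of the feature and to the total of the library. Whole reads were recovered from the RPKM values (length of FHL1 in the counting, 2575 nt), and every interval below is a 95% interval of those reads that covers counting error only. The library totals so recovered lay between 21685316 and 38581416 reads for single tissues and were 63015726 and 108337358 for the muscle and tissue mixtures. Of these, 11.6% to 38.0% had been counted in listed features. The summed RPKM of all features also differed among single-tissue libraries, from 61672 in spleen to 214285 in ovary, and values are given both as deposited and scaled to the same sum. The tissue labels were checked against marker genes: the summed markers of hepatocytes, lung epithelium, kidney epithelium, germ cells, adipocytes, leukocytes, cardiomyocytes and ovary were highest in liver, lung, kidney, testis, adipose, spleen, heart and ovary, respectively, the last at only 8.27 RPKM over 3 genes. The hepatocyte markers also summed to 392 RPKM in lung, with ALB at 343, against at most 19.8 RPKM in the other single-tissue libraries except liver, and their part in the lung values was not tested. ACTA1, the actin of skeletal muscle fibres, was at 2012, 3183 and 2998 RPKM in muscle at D0, D30 and D240.

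FHL1 was among the most abundant transcripts of longissimus dorsi at every stage. It stood at 362 RPKM at D0 (33315 reads, interval 358 to 366), at 117 RPKM at D30 (7385 reads, 115 to 120) and at 379 RPKM at D240 (31858 reads, 375 to 383). These levels placed FHL1 at rank 37, 56 and 39 of the 21607 Ensembl genes, above 99.8%, 99.7% and 99.8% of them. As a share of all counted reads, FHL1 took 0.457% at D0, 0.204% at D30 and 0.445% at D240. Only 36, 55 and 38 Ensembl genes had a higher RPKM than FHL1 at D0, D30 and D240, and 27 of them did so at all 3 stages. At D240 the nearest named genes above FHL1 were MYH13, a myosin heavy chain, at 385 RPKM and TNNC1, the calcium-binding troponin of slow and cardiac fibres, at 383 RPKM. The next below were ATP2A1, the calcium pump of fast fibres, at 351 RPKM, the mitochondrial ND2 at 333 RPKM and the glycolytic enzyme TPI1 at 326 RPKM. Reads of MYH13 may be split with near-identical myosin genes. The muscle mixture held FHL1 at 164 RPKM (26617 reads), rank 96, between the D30 and D0 levels as deposited, but below D30 on the same sum (121 against 162 RPKM).

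Outside skeletal muscle, FHL1 was present in every organ, from 0.756 RPKM in liver to 48.8 RPKM in adipose. Adipose came next after muscle at 48.8 RPKM (4746 reads, 47.4 to 50.2, rank 148). Heart followed at 42.1 RPKM (3898 reads, 40.8 to 43.4), lung at 41.5 RPKM (3954 reads, 40.3 to 42.9) and ovary at 34.4 RPKM (1923 reads, 32.9 to 36.0). FHL1 had rank 218 in both heart and lung, above 99.0% of Ensembl genes, but rank 839 in ovary. An RPKM 1.21-fold higher in lung than in ovary thus went with a much higher place among the genes of the library.

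The remaining organs were lower. Spleen had 11.1 RPKM (1038 reads, 10.4 to 11.8, rank 869), testis 5.31 RPKM (528 reads, 4.87 to 5.79, rank 5389), kidney 3.80 RPKM (356 reads, 3.42 to 4.22, rank 4135) and liver 0.756 RPKM (60 reads, 0.577 to 0.973, rank 6685). Relative to the median of the Ensembl genes above 0 in the same library, FHL1 was at 1.15 times in liver, 2.61 times in testis and 2.90 times in kidney. In testis FHL1 was at a higher RPKM than in kidney and yet had a lower rank, 75.1% against 80.9% of Ensembl genes lying below it. The tissue mixture was at 82.0 RPKM (22873 reads, rank 219).

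**Figure D1:**
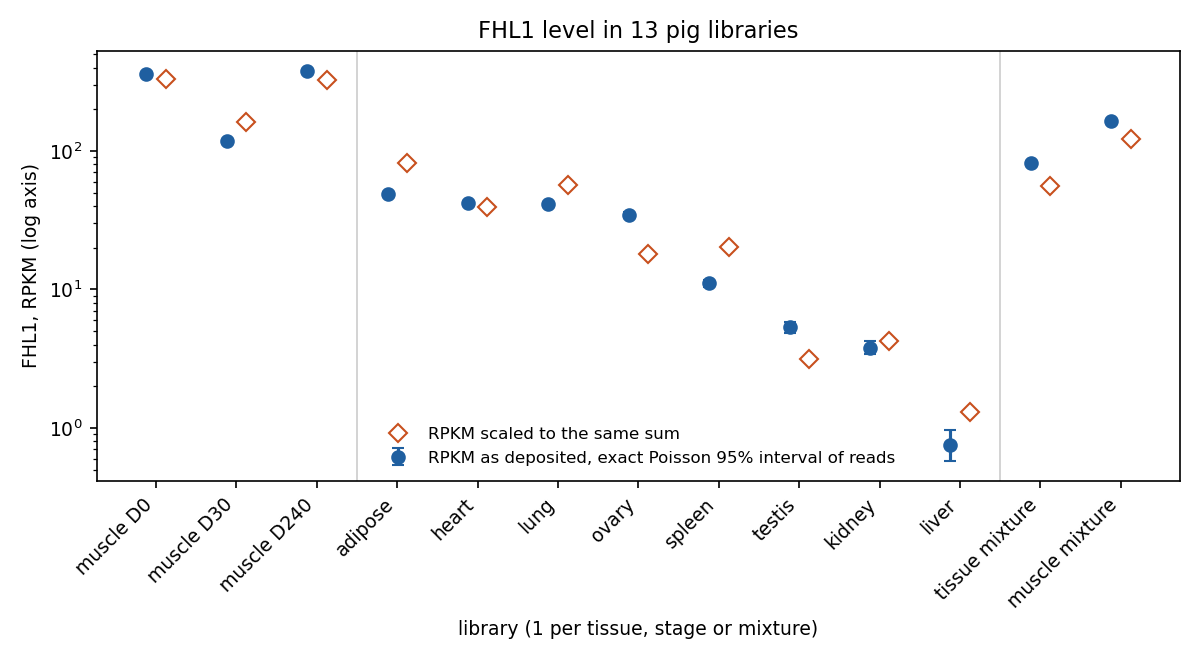
FHL1 in each of the 13 libraries, as RPKM on a log axis, with muscle stages at the left, the other organs in falling order in the middle and the mixtures at the right. Filled points are deposited values with exact Poisson 95% intervals and open diamonds are values scaled to the same sum. Muscle D0 and D240 lie together at 362 and 379 RPKM, D30 lies lower at 117 RPKM, and liver is lowest at 0.756 RPKM.

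The order of the 9 organs at day 240, with muscle at D240, was muscle, adipose, heart, lung, ovary, spleen, testis, kidney and liver. Neighbours in this order differed by more than counting error except heart and lung, whose ratio was 1.01 (0.969 to 1.06). The largest steps were from muscle to adipose, 7.76-fold (7.53 to 8.01), and from kidney to liver, 5.03-fold (3.82 to 6.73). Scaling to the same sum left muscle first, adipose second and liver last, and moved the other organs to the order lung, heart, spleen, ovary, kidney and testis. The muscle-to-adipose step was then 3.95-fold (3.84 to 4.08), with muscle at 326 and adipose at 82.5 RPKM. On the same scale lung was at 57.1, heart at 39.3, spleen at 20.2, ovary at 18.1, kidney at 4.22, testis at 3.15 and liver at 1.29 RPKM. Between bulk samples, fewer cells of a type and less RNA per cell cannot be told apart.

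Adult muscle exceeded each of the 8 other organs by more than 2-fold in its FHL1 level, under both scalings. The ratio was 9.01 to heart (8.71 to 9.32), while 12.4% of Ensembl genes tested were higher in muscle than in heart by 2-fold. It was 9.12 to lung (background 9.0%), 11.01 to ovary (4.99%), 34.2 to spleen (17.1%), 71.3 to testis (7.22%), 99.7 to kidney (10.2%) and 501 to liver (29.9%), and the ratio to adipose given above had a background of 13.7%. On the same sum the ratios were 8.31 to heart (10.7%), 5.72 to lung (6.08%), 18.0 to ovary (6.94%), 16.1 to spleen (9.76%), 104 to testis (9.17%), 77.3 to kidney (8.21%) and 252 to liver (17.5%), with a background of 7.37% for adipose. As deposited, FHL1 lay between the 96.9th and the 99.6th percentile of all differences between muscle and an organ. Against the next organ, whichever that was for a gene, 236 of 18576 Ensembl genes (1.27%) were higher in muscle by 2-fold or more. FHL1 had the 74th largest such gap, and the 109th largest on the same sum, where 1.15% passed.

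FHL1 was nevertheless not confined to muscle. Its tau, an index that is 0 for even expression over the 9 organs and 1 for expression in a single organ, was 0.414 on the log2(RPKM + 0.1) scale, close to the median of 0.430 over 15252 Ensembl genes. Its side of the median turned with the setting: it was 0.391 against 0.387 on the same sum, 0.447 against 0.382 on the same median ratio, and 0.326 against 0.300 with a pseudocount of 0.01. With a pseudocount of 1 it was below the median, 0.549 against 0.611. Muscle held 66.9% of the RPKM summed over the 9 organs. Among the 441 Ensembl genes that were highest in muscle (2.89%), 268 had a higher tau than FHL1. Some contractile genes, chosen after their values were seen, were far lower in organs without striated muscle, and others were not. TNNC2, the troponin C of fast fibres, was at 10378 RPKM in D240 muscle but at 8.11 in adipose, 1.2 in lung and 0.958 in ovary, and ACTA1 was at 2.91 RPKM in adipose, 1.18 in lung and 0 in ovary. TPM1, a tropomyosin that smooth muscle also makes, was at 60.4 RPKM in adipose, 121 in lung, 210 in spleen and 325 in ovary.

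Smooth muscle genes were abundant in some of the organs that held FHL1. The summed RPKM of the 6 of 7 listed smooth muscle markers that were matched was 398 in spleen, 305 in ovary, 186 in lung and 44.0 in adipose, against 35.5 in kidney, 32.3 in testis and 10.2 in liver, and none of the 6 was at 0 in any library. Heart was at 332 RPKM, of which DES gave 298. The fibroblast markers (4 of 6 matched) summed to 1100 RPKM in ovary and 1005 in adipose. They were at 78.9 in lung, 74.0 in heart, 43.1 in kidney, 30.0 in spleen, 17.5 in testis and 6.11 in liver. The endothelial markers (2 of 5 matched) summed to 58.1 RPKM in lung, 50.4 in ovary and 29.6 in adipose. Kidney, at 15.9, was level with heart, at 15.5, and spleen was at 9.16, testis at 7.73 and liver at 6.58. The adipocyte markers (2 of 5 matched) summed to 153 RPKM in adipose and to at most 1.72 RPKM in the other single-tissue libraries. The part of these cell types in the FHL1 levels was not tested.

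Over the muscle stages FHL1 was low at D30. From D0 to D30 it was 3.08-fold lower (3.01 to 3.16), a log2 change of -1.62. From D30 to D240 it was 3.23-fold higher (3.15 to 3.31), a log2 change of 1.69. D240 and D0 differed by a ratio of only 1.05 (1.03 to 1.06), a log2 change of 0.067, although 36.8% of the 12594 Ensembl genes tested were lower at D240 than at D0 by 2-fold and 10.4% were higher.

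Part of the D30 pattern was shared by the whole library. Between D0 and D30, 41.2% of 12827 Ensembl genes with at least 0.1 RPKM in either library were lower by 2-fold or more and 11.4% were higher, and the median log2 change was -0.75. FHL1 stood at the 20.5th percentile of these changes, 0.87 below the median on the log2 scale. From D30 to D240, 20.6% of 12380 genes were higher by 2-fold and 18.2% were lower, with a median of 0.16, and FHL1 stood at the 93.0th percentile. The D30 library had the lowest RPKM sum of the muscle stages, 81849 against 124071 at D0 and 130870 at D240, and only 14.8% of its reads had been counted.

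With the libraries scaled to the same sum, FHL1 was at 329, 162 and 326 RPKM at D0, D30 and D240. The D0 to D30 change was then -1.02 in log2, or 2.04-fold lower (1.98 to 2.09), where 25.0% of genes were lower by 2-fold and 18.1% higher. The D30 to D240 change was 1.01 in log2, or 2.02-fold higher (1.97 to 2.07), where 9.69% of genes were higher and 31.3% lower. Both counting intervals reached below 2. D0 and D240 had a log2 difference of -0.010, with a ratio of 0.993 (0.978 to 1.01), so that their order turned and their interval included 1, whereas 38.3% of genes were lower at D240 and 9.21% higher. The percentile of FHL1 was 24.4 for the first step and 90.5 for the second.

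The place of FHL1 was less extreme among abundant genes. Of 136 Ensembl genes with at least 100 RPKM at D0 or D30, a limit chosen after seeing the data, 57.4% were lower at D30 by 2-fold, and FHL1 stood at the 37.8th percentile. Of 102 with at least 100 RPKM at D30 or D240, 41.2% were higher at D240 by 2-fold as deposited, and FHL1 stood at the 87.1th percentile. Scaled so that the median ratio of 4288 genes was equal among stages, FHL1 was at 262, 157 and 390 RPKM. The first step was then -0.74 and no longer passed 2-fold, while the second, 1.31, did.

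A gene lower at D30 than at both other stages by 2-fold or more was not rare as deposited: 1595 of 13260 (12.0%) had this shape, and 649 (4.89%) had it on the same sum. FHL1 was among both counts. It did not have this shape on the same median ratio, where 5.54% of genes did. Nor did it on the same sum without the 10 highest features of each muscle library (4.93%). Its D30 level was 1.66 below the mean of D0 and D240 on the log2 scale, at the 8.11th percentile, and 1.02 below it on the same sum, at the 11.5th. Of 154 Ensembl genes with at least 100 RPKM, 21 had a deeper dip than FHL1 under both scalings.

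**Figure D2:**
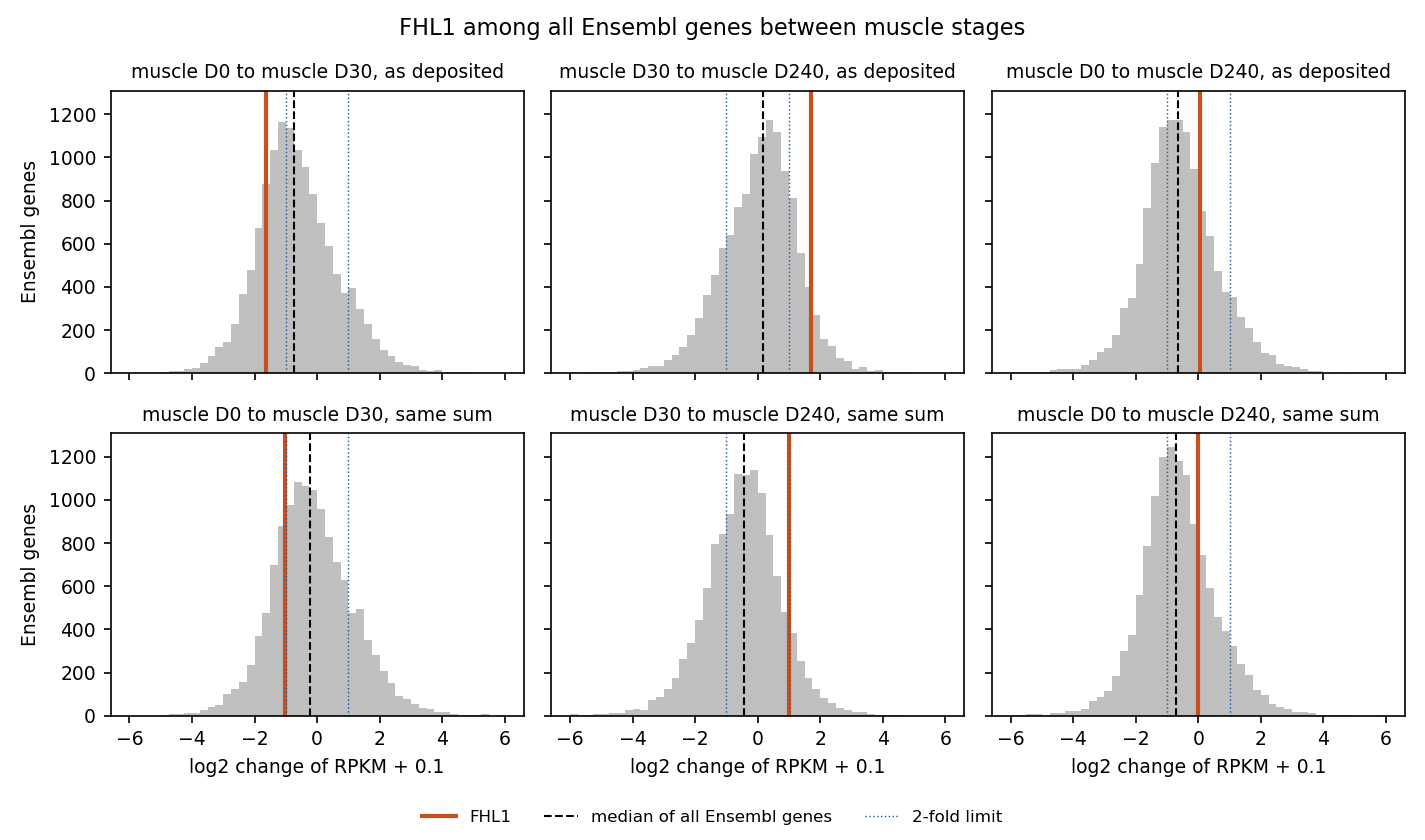
Number of Ensembl genes by log2 change of RPKM + 0.1 in bins of 0.25, for the 3 pairs of muscle stages, as deposited in the upper row and scaled to the same sum in the lower row; changes beyond 6 are counted in the end bins. The FHL1 line lies left of the median at D0 to D30 (-1.62 against -0.75 as deposited) and right of it at D30 to D240 (1.69 against 0.16).

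Both other FHL genes that were matched were below FHL1 in muscle. FHL5, a sister gene known chiefly from testis, was at 4.82, 2.0 and 2.74 RPKM at D0, D30 and D240, from 208, 59 and 108 reads. FHL1 was therefore 75.1, 58.7 and 138 times as abundant per length. Testis was the only library in which FHL5 was above FHL1, at 10.2 RPKM (9.34 to 11.2) against 5.31. FHL5 was at 5.98 RPKM in lung, 4.08 in adipose, 2.83 in kidney, 1.41 in ovary and 1.17 in heart, and at 1 read in liver and 2 in spleen.

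FHL3, a sister gene known from skeletal muscle, had no read in 10 of the 11 single-tissue libraries and 1 read in spleen. A count of 0 allows up to 0.0539, 0.0788 and 0.0590 RPKM at D0, D30 and D240. The tissue mixture held 213 reads (1.26 RPKM, 1.10 to 1.44) and the muscle mixture 77 (0.785 RPKM, 0.619 to 0.981). FHL2 was not matched to a listed gene and is not analysed here. The counting was by gene, so the isoforms of FHL1 were not separated.

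Other LIM domain proteins did not share one course over the stages. Of 28 listed, 19 were matched and 18 were tested from D0 to D30 as deposited, of which 5 were lower and 3 higher by 2-fold, where 41.2% and 11.4% of all genes were (median log2 change -0.49 against -0.75 over all genes). CSRP3, the muscle LIM protein of the Z-disc, had the deepest dip: it was at 327, 11.4 and 94.8 RPKM. Its log2 changes were -4.83 and then 3.05 as deposited, and -4.23 and then 2.37 on the same sum. PDLIM3, a partner of alpha-actinin, was at 89.0, 70.8 and 116 RPKM, but at 80.9, 97.5 and 99.9 RPKM on the same sum, without a dip. NRAP, which takes part in myofibril assembly, went the other way and was at 16.6, 52.3 and 41.3 RPKM. LMCD1, a transcriptional cofactor, had the highest correlation with FHL1 in the list (r = 0.90) and was at 12.7, 5.04 and 10.50 RPKM. From D30 to D240, 15 of the 17 tested members had a smaller increase than FHL1 or none. So did most Ensembl genes, as FHL1 stood at the 93.0th percentile of this step.

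Most contractile genes of the lists had a smaller drop at D30 than FHL1 or none. None of the 6 fast-fibre genes tested and none of the 10 genes shared by all fibres had as low a D0 to D30 change as FHL1, under either scaling. Most Ensembl genes did not either, as FHL1 stood at the 20.5th percentile of this step as deposited and the 24.4th on the same sum. As deposited, 2 of the 6 were higher at D30 by 2-fold and 0 lower, and 1 of the 10 was higher and 1 lower (11.4% and 41.2% of all genes). The lower one was ACTN2, the alpha-actinin of the Z-disc, at 224 RPKM at D0 and 109 at D30, named after its values were seen. On the same sum, 3 of the 6 and 3 of the 10 were higher by 2-fold and 0 were lower (18.1% and 25.0% of all genes), with medians of 0.89 and 0.90 against -0.23 over all genes. TNNC2 was at 4717, 2877 and 10378 RPKM and MYL1, a myosin light chain, at 2402, 1844 and 3798. On the same sum TNNC2 was at 4285, 3962 and 8938 RPKM, and MYL1 lacked the dip, at 2182, 2539 and 3271. TPM1 was at 1865, 2362 and 4947 RPKM, and NEB, the thin filament ruler nebulin, at 504, 640 and 911.

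The slow and developmental genes split. Among 5 tested slow or cardiac genes, 2 were lower at D30 by 2-fold as deposited (41.2% of all genes) and 1 on the same sum (25.0%), shares near the background. ACTC1, the cardiac actin that is also made in immature muscle, was at 84.9, 7.23 and 0.939 RPKM, and so did not return at D240 as FHL1 did. MYL3, a light chain of slow fibres and heart ventricle, was at 235, 92.2 and 175 RPKM, and so was lowest at D30 and intermediate at D240. The other tested genes did not pass 2-fold from D0 to D30. TNNT1 was at 630, 472 and 987 RPKM, TNNC1 at 318, 203 and 383 and TNNI1 at 45.1, 42.8 and 72.7. On the same sum TNNT1 was at 572, 650 and 850 RPKM, TNNC1 at 288, 280 and 330 and TNNI1 at 41.0, 59.0 and 62.6. Of the 6 developmental genes tested from D0 to D30, 1 was higher and 1 lower by 2-fold under both scalings, where 11.4% and 41.2% of all genes were as deposited and 18.1% and 25.0% on the same sum. MYH3, the embryonic myosin, was at 37.3, 80.7 and 96.4 RPKM and MYH8, the perinatal myosin, at 1888, 2442 and 3695 RPKM, values that near-identical myosin genes may share.

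**Figure D3:**
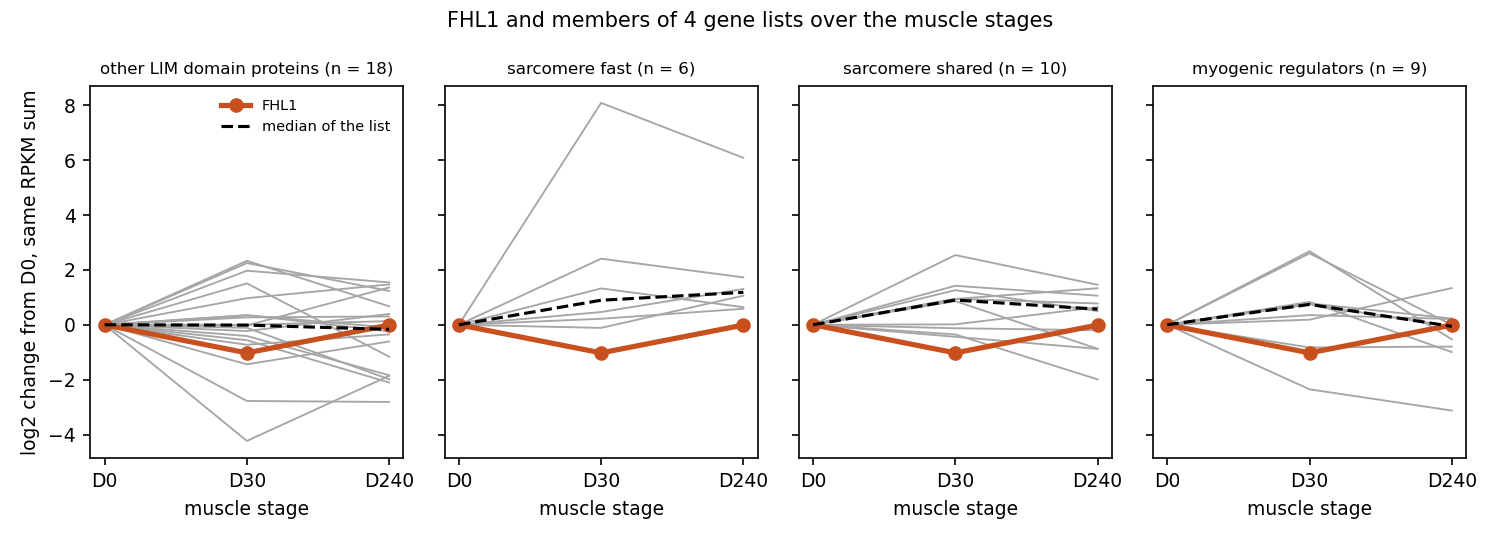
Log2 change from D0 over the muscle stages on the same RPKM sum, for FHL1 (thick line with points), each tested member of 4 gene lists (thin lines) and the list median (dashed line). FHL1 is at -1.02 at D30 and -0.010 at D240, below each of the 6 fast-fibre and 10 shared sarcomere genes at D30, whose medians are 0.89 and 0.90. Over all Ensembl genes the median at D30 is -0.23, and FHL1 stands at the 24.4th percentile.

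Among 8 matched of 13 listed partners of FHL1, 3 were lower and 1 higher at D30 than at D0 by 2-fold as deposited, and 1 and 1 on the same sum, near the background of 41.2% and 11.4%, and 25.0% and 18.1%. MYBPC1, the slow myosin-binding protein, was at 143, 104 and 191 RPKM, but at 130, 143 and 164 RPKM on the same sum, without a dip. MAP2K2, a kinase that activates MAP kinases, was at 6.02, 3.23 and 7.29 RPKM. RBPJ, the nuclear effector of Notch signalling, was at 6.90, 2.43 and 2.67 RPKM. From D30 to D240 none of the 8 had as large an increase as FHL1 under either scaling. Nor did most Ensembl genes, as FHL1 stood at the 93.0th percentile of this step as deposited and the 90.5th on the same sum. As deposited, 3 of the 8 were higher at D240 by 2-fold and 0 lower (20.6% and 18.2% of all genes). On the same sum, 0 were higher and 2 lower (9.69% and 31.3%).

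Of the myostatin pathway, which restrains muscle growth, 10 of 11 matched members were tested from D0 to D30. As deposited, 4 were lower and 1 higher by 2-fold, near the 41.2% and 11.4% of all genes. On the same sum, 3 were lower and 2 higher, near the 25.0% and 18.1% of all genes. MSTN, myostatin itself, was at 1.42, 1.38 and 5.20 RPKM, with log2 changes of 0.53 and 1.19 on the same sum. SMAD3, which carries the signal to the nucleus, was at 4.07, 1.25 and 1.57 RPKM. SMAD4 was at 8.09, 5.21 and 8.83 RPKM and SMAD2 at 2.71, 2.05 and 3.96. On the same sum SMAD3 was at 3.70, 1.73 and 1.35 RPKM, SMAD4 at 7.35, 7.18 and 7.61 and SMAD2 at 2.46, 2.82 and 3.41. MSTN thus lacked the dip at D30. SMAD3 was lower at D30 than at D0 and did not return, and on the same sum it was lower still at D240.

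Myogenic regulators were mixed as well: of 9 tested from D0 to D30, 2 were lower and 2 higher by 2-fold as deposited, against 41.2% and 11.4% of all genes. MEF2C, a transcription factor of muscle differentiation, came closest to FHL1 over the 11 single-tissue libraries (r = 0.89), and was at 54.0, 20.03 and 32.8 RPKM. MYF6, a factor of mature fibres, was at 6.56, 4.94 and 17.7 RPKM, MEF2A at 3.89, 3.29 and 4.76 and the growth factor IGF1 at 5.78, 6.85 and 3.0. On the same sum MYF6 and MEF2A were not lowest at D30, at 5.96, 6.80 and 15.2 RPKM and at 3.53, 4.53 and 4.10. MYF5, the only matched marker of the 2 listed for satellite cells, was at 1.12 RPKM at D0, 0.0860 at D30 and 0.0322 at D240. These values came from only 38, 2 and 1 reads.

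Of the other 5 listed genes of Emery-Dreifuss muscular dystrophy, 4 were matched, and EMD was not. LMNA, the nuclear lamin, was at 20.8, 9.40 and 8.0 RPKM and TMEM43, a protein of the nuclear envelope, at 2.93, 1.36 and 0.851. SYNE1 was at 1.08, 1.17 and 0.962 RPKM and SYNE2 at 1.96, 1.78 and 2.44. SYNE2 was thus lowest at D30 and highest at D240 as deposited, but highest at D30 on the same sum (1.78, 2.46 and 2.10 RPKM). LMNA and TMEM43 were lowest at D240 under both scalings. Of these 4, 0 were higher by 2-fold in any pair of stages under either scaling, where 9.21% to 20.6% of all genes were. From D0 to D30, 2 were lower as deposited (41.2% of all genes) and 0 on the same sum (25.0%). From D30 to D240, 0 were lower as deposited (18.2%) and 1 on the same sum (31.3%). From D0 to D240, 2 were lower under both scalings (36.8% and 38.3%). Among 5 tested genes of growth and protein breakdown, 0 passed 2-fold from D0 to D30 (41.2% of all genes were lower and 11.4% higher as deposited). From D30 to D240, 2 were higher and 0 lower as deposited (20.6% and 18.2%), and 1 and 1 on the same sum (9.69% and 31.3%). From D0 to D240, 2 were higher and 0 lower under both scalings (10.4% and 36.8% as deposited, 9.21% and 38.3% on the same sum). TRIM63, a ubiquitin ligase of the sarcomere, was at 91.4, 80.6 and 205 RPKM, FBXO32, a ubiquitin ligase of atrophy, at 11.7, 6.30 and 34.5, MTOR at 2.07, 2.11 and 1.24 and FOXO1 at 1.84, 1.15 and 1.0. On the same sum TRIM63 was not lowest at D30, at 83.0, 111 and 176 RPKM, whereas FBXO32 was, at 10.6, 8.68 and 29.7.

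Beside the stage values, the fibroblast markers summed to 114, 102 and 43.4 RPKM at D0, D30 and D240 (none of the 4 at 0), and the smooth muscle markers to 334, 229 and 528, of which DES, which striated muscle also makes, gave 313, 209 and 515. The cardiomyocyte markers (3 of 6 matched) summed to 379, 378 and 769 RPKM, nearly all from MYH6, whose reads may be split with a near-identical myosin gene, with NPPB at 0 at all 3 stages; the endothelial markers summed to 13.6, 9.25 and 7.34, and the red cell markers (2 of 4 matched) to 20.5, 8.25 and 9.98. Their part in the FHL1 profile was not tested.

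The genes whose profile over the 11 single-tissue libraries was most like that of FHL1 were found by Pearson's r of log2(RPKM + 0.1) among 15323 Ensembl genes with at least 1 RPKM in 1 of them. The points share their libraries and depths, so r is a description with n = 11. MAP3K20, a stress-activated kinase, came first (r = 0.97). It was at 25.9, 14.6 and 35.6 RPKM at D0, D30 and D240, at 7.84 in heart, 6.36 in ovary, 6.29 in lung, 4.49 in adipose and 1.03 in liver. SYNPO2, an actin-binding protein of the Z-disc (r = 0.94), was at 75.8, 31.5 and 83.3 RPKM over the stages and at 0.725 in liver. NEXN, an actin-binding Z-disc protein (r = 0.92), was at 270, 153 and 134 RPKM over the stages and at 172 in heart, a far higher share of its muscle level than FHL1 showed there. SSPN, a member of the dystrophin complex (r = 0.92), was at 19.1, 10.9 and 16.7 RPKM. The other 6 of the 10 carried no symbol, among them ENSSSCG00000012207 (r = 0.96).

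Values of r of at least 0.9 were reached by 17 genes (0.111%), while the median over all genes was -0.18. Of the 10, 8 remained when the earlier muscle stages were left out or the libraries were scaled to the same sum, 7 with a pseudocount of 1, 4 by Spearman's rho, and 2 over the 8 organs without muscle, an alternative chosen after seeing the data.

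**Figure D4:**
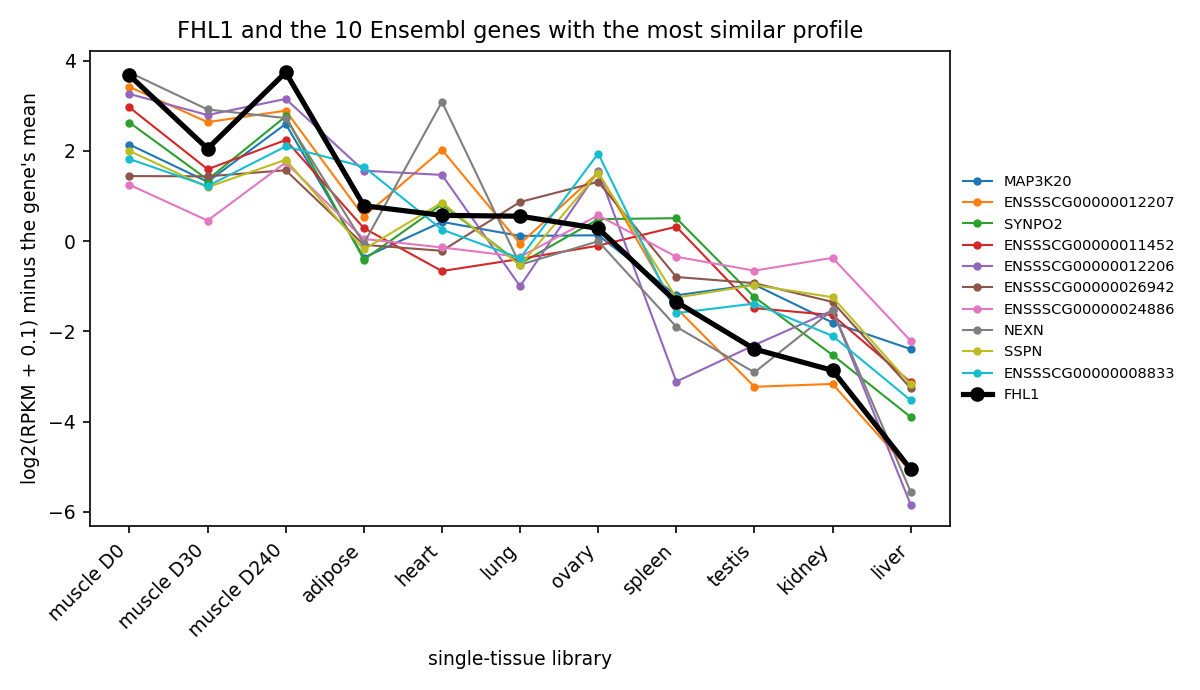
Profiles of FHL1 (thick black) and of the 10 Ensembl genes with the highest r over the 11 single-tissue libraries, as log2(RPKM + 0.1) minus the mean of each gene. All are highest in a muscle library and lowest in liver; NEXN stands apart in heart at 172 RPKM and MAP3K20 follows FHL1 most closely (r = 0.97).

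Genes near FHL1 on chromosome X had other profiles. In the order of a RefSeq annotation, MMGT1, a magnesium transporter, lay on one side, and MAP7D3, which binds microtubules, and HTATSF1, a splicing factor, lay on the other. Their r with FHL1 was 0.18, 0.12 and 0.24. In muscle at D240 they were at 0.893, 0.607 and 6.44 RPKM against 379 for FHL1. MAP7D3 was highest in testis at 16.4 RPKM. No RefSeq gene overlapped FHL1.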

How the data were processed

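Total RNA of 11 single tissues and 2 mixtures of pig was depleted of ribosomal RNA and made into strand-specific paired-end libraries by the SMART or the dUTP protocol; which library had which is not given in the sources used here. The authors mapped reads with TopHat 1.3.2 and assembled transcripts with Cufflinks (submitters' processing notes), counted reads by gene with htseq-count and deposited 1 RPKM value per feature and library. The genome build of these files is not given in the sources used here, so no coordinates are printed.

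RPKM as deposited was the main scale. Since RPKM is reads divided by length and by total, whole totals, lengths and reads were recovered for 29462 of 29462 features above 0; the largest distance of a total from a whole number was 1.5e-08. The recovery and the statistics over all genes were tested on simulated data. Ranks, percentiles, tau and Pearson's r were computed over Ensembl genes with Python 3.11.15, numpy 2.4.6, pandas 2.3.3 and scipy 1.17.1, and figures with matplotlib 3.10.9. Changes are on the log2(RPKM + 0.1) scale, with genes of at least 0.1 RPKM in either library (at least 1 RPKM in 1 library for tau and r), and a gene was counted as higher or lower past 2-fold. Intervals are exact Poisson (levels) or exact binomial (shares and ratios) at 95%, and the limit of a count of 0 is 3 reads. Same-sum values were scaled to the mean RPKM sum of the 11 single-tissue libraries.

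Of 21607 Ensembl genes, 11760 had a symbol, 11654 from a reference table and 106 from identifier columns of the study's tables, FHL1 among the latter. Of 127 symbols in 11 gene lists, 87 were matched, and of 71 markers in 14 lists, 43. Named genes were FHL family members, the 4 list members with the highest mean RPKM in muscle, 10 genes with the highest r, neighbours by rank at D240 and neighbours on the chromosome. ACTC1, TNNC2 and ACTA1 in organs, and single markers were added after their values were seen. Genes and lists were chosen with earlier results of these data known. Alternatives were 3 other scalings, other pseudocounts, filters, limits and ways to rank. Some genes that the rule names are not reported here. No sequences are printed.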

Additional observations from a re-analysis of the deposited data

Results flagged for a closer look

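FHL3, the sister gene of FHL1, had a signal in libraries that enter no comparison between tissues or stages. The tissue mixture held 213 reads of it and the muscle mixture 77, against 1 read in all over the 11 single-tissue libraries, which include 3 of longissimus dorsi. Of 10810 Ensembl genes with at least 77 reads in both mixtures, 2 (0.0185%) had at most 1 read over the single-tissue libraries. The other was ENSSSCG00000024790, chosen after its values were seen, with 367 and 230 reads in the tissue and muscle mixtures and 0 in the other 11. The mixtures differ from the single-tissue libraries in breed, age and depth together, which cannot be told apart. Which of the SMART and dUTP protocols made each library is not given in the sources used here.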

How the results depend on the processing

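No paired analysis was possible because each tissue, stage and mixture was 1 library; leaving out a replicate was likewise not possible. Depth limited the liver value most (60 reads).

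The change of FHL1 from D0 to D30 (-1.62 as deposited) was -1.02 on the same sum, -0.74 on the same median ratio and -0.83 on the same sum without the 10 highest features of each muscle library. The last 2 did not pass 2-fold. From D30 to D240 (1.69) it was 1.01, 1.31 and 1.09, all past 2-fold. From D0 to D240 (0.067) it was -0.010, 0.57 and 0.26, so its direction turned on the same sum. The cause was not tested. The percentile of FHL1 from D0 to D30 (20.5) was 27.7 with a pseudocount of 0.01 and 5.30 with 1. From D30 to D240 (93.0) it was 88.2 and 99.0.

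Counts of genes moved too. From D0 to D30, 2321 were higher and 3213 lower on the same sum, 2888 and 2321 on the same median ratio, 271 and 2311 with a pseudocount of 1, and 144 and 1949 with at least 1 RPKM in both libraries. From D30 to D240, 1200 were higher and 3876 lower on the same sum, 828 and 376 with a pseudocount of 1, and 844 and 192 with at least 1 RPKM in both; 4198 were higher past 1.5-fold. From D0 to D240, 338 were higher and 1544 lower with a pseudocount of 1, and 271 and 1302 with at least 1 RPKM in both; 2778 were lower on the same median ratio and 1992 higher past 1.5-fold.

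Ranked by reads and not per length, FHL1 was at rank 146 in heart, 5815 in liver, 773 in spleen, 154 in lung, 3546 in kidney, 4415 in testis, 703 in ovary, 80 in adipose, 24 in muscle D0, and 65 and 123 in the muscle and tissue mixtures. With lncRNAs included it was at 7029 in liver, 4269 in kidney and 5758 in testis. Tau was 0.326 with a pseudocount of 0.01 and 0.549 with 1. In the organ order, 3 of 9 places were kept on the same sum and 5 on the same median ratio. Of the 10 most similar genes, 4 were kept by Spearman's rho and 2 over 8 organs without muscle. Another 57 values stayed within their error or within 1.5 times, but part of them could not move and show no robustness. Ranks among Ensembl genes above 0 equal the main ranks by construction, since a gene at 0 cannot rank above FHL1. Counts without the filter are fixed too: with the main pseudocount, genes below the filter in both libraries cannot pass 2-fold. The changes of FHL1 between muscle stages could hardly respond to the pseudocount at such high levels.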
